A study of Drosophila melanogaster with 3 samples.

Results

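The set described here comprises 37 fly genes for sodium, potassium and calcium channels and their partner proteins, with a cation and a chloride channel added. They were named by symbol, and 29 of them were found among the 11922 gene IDs measured in AKHR+ neurons. The members fell into 20 genes for channel pores and 9 for auxiliary subunits, and by ion into 16 potassium, 8 sodium, 3 calcium, 1 mixed cation and 1 chloride channel gene. The 8 genes para, unc80, Nlf-1, Ca-beta, Elk, SLO2, Irk1 and sand are not analysed here. The annotation writes the symbols TEH1 to TEH4 as Teh1 to Teh4 and lists Nlf-1 as Mid1.

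Adipokinetic hormone signals hunger in flies, and AKHR+ neurons are the cells of the brain that sense it through its receptor, AKHR. All 3 libraries belonged to a single group: flies carrying nSyb-AD-AKHR-BD-GAL4;UAS-mCD8gfp, aged 5 days and kept on normal food, so there was no second condition to compare with. The membrane GFP reporter was driven by a split GAL4, with one part under nSyb, a promoter active in all neurons, and the other under AKHR. GFP-marked cells were drawn by glass pipette out of dissected brains, and their amplified cDNA was sequenced. Each library is titled AKHR neuron with a number, which gives no count of cells. The authors describe picking individual cells, while another field of the record speaks of pooled cells. Whether a library holds 1 cell or several is therefore not known. The libraries are called cells 1, 2 and 3, and the values of a gene are given in the order of these numbers.

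Ion channels set how a neuron fires. Voltage-gated sodium channels carry the upstroke of the action potential, potassium channels end it and set the interval to the next, and leak channels hold the resting potential from which it starts. Calcium channels link the voltage change to transmitter release and to signalling inside the cell. Auxiliary subunits do not conduct ions themselves but change how many pores reach the membrane and how these open and close. In flies most pore types are encoded by a single gene or a pair of genes, and many of them were first known from mutants that shake or become paralysed.

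Expression was given as FPKM, which scales the fragments of a gene by its exon length and by the mapped total of the library. This is meant to make genes of different length comparable within a cell, but the length used for each gene is not given. For Sh, the exons together cover 22801 bases while the mean transcript has 3828. Comparisons of level between genes are limited by this. A gene was called detected at an FPKM of at least 1. Cell 1 had 19 of the 29 channel genes at this level, cell 2 had 29 and cell 3 had 27. Among all 11922 genes the shares were 36.8%, 50.7% and 47.2%. In all 3 cells 17 channel genes were detected (58.6%), against 31.1% of all genes, and 0 channel genes were detected in no cell, against 42.3% of all genes. The share of channel genes was thus above that of all genes in every cell. The channel genes were listed for their known roles in neurons, with earlier results of these data known, and the full list was not chosen for a tissue. The part of the choice of genes in this difference was not tested.

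The whole set took a small part of the RNA measured. Its summed FPKM was 719, 1464 and 1188, or 0.146%, 0.283% and 0.220% of the summed FPKM of the cell (mean 0.216% ± 0.069, SD, n = 3). The median level of the channel genes on the log2(FPKM + 1) scale was 2.35, 5.59 and 3.92 (mean 3.95 ± 1.62, SD, n = 3). The median over all genes on the same scale was 0, 1.19 and 0.18. As a higher bar, the median FPKM of only the genes above 0 in the same cell was taken, which was 30.99, 21.7 and 23.4. Of the channel genes, 7, 20 and 12 (24.1%, 69.0% and 41.4%) exceeded this median, against 20.8%, 26.6% and 25.4% of all 11922 genes. Both shares count genes at 0, whereas the genes above 0 alone divide evenly at this median. Above it in all 3 cells were TEH2, Sh, slo, Irk2 and qvr, 5 of 29 channel genes (17.2%), against 13.4% of all genes. Without cell 1 the number was 12 (41.4%), against 19.2% of all genes.

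**Figure D1:**
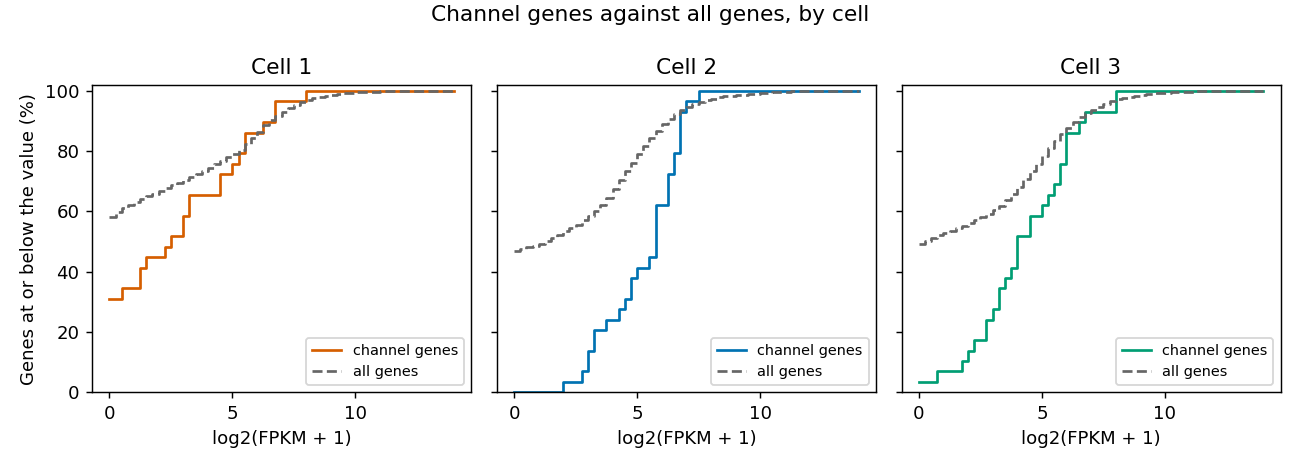
Share of genes at or below each level (vertical axis, %) against log2(FPKM + 1) (horizontal axis) for the 29 channel genes (solid) and all 11922 genes (dashed), one panel per cell. The solid line starts lower than the dashed line in each cell, where 9, 0 and 1 channel genes were listed at 0, and at the highest levels it ends to the left of the dashed line.

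The members differed widely in level, as the plot of every channel gene by class shows. Levels were put in order for the 19 members above 0 in every cell. The inward rectifier gene Irk2 had the highest mean log2 value of these, 7.31, and qvr, Sh, Irk3 and TEH2 followed it. At the low end stood Task6, Ca-alpha1T and Ork1, the last at 1.62. In cell 2, where no member was at 0, the lowest 3 were Ca-alpha1T, TEH4 and eag. Most steps in the order were smaller than the spread between cells. Of the 18 pairs of neighbours, the mean difference exceeded its SD in 2, namely TEH2 above slo and Task6 above Ca-alpha1T. These were also the 2 pairs with the same order in every cell.

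**Figure D2:**
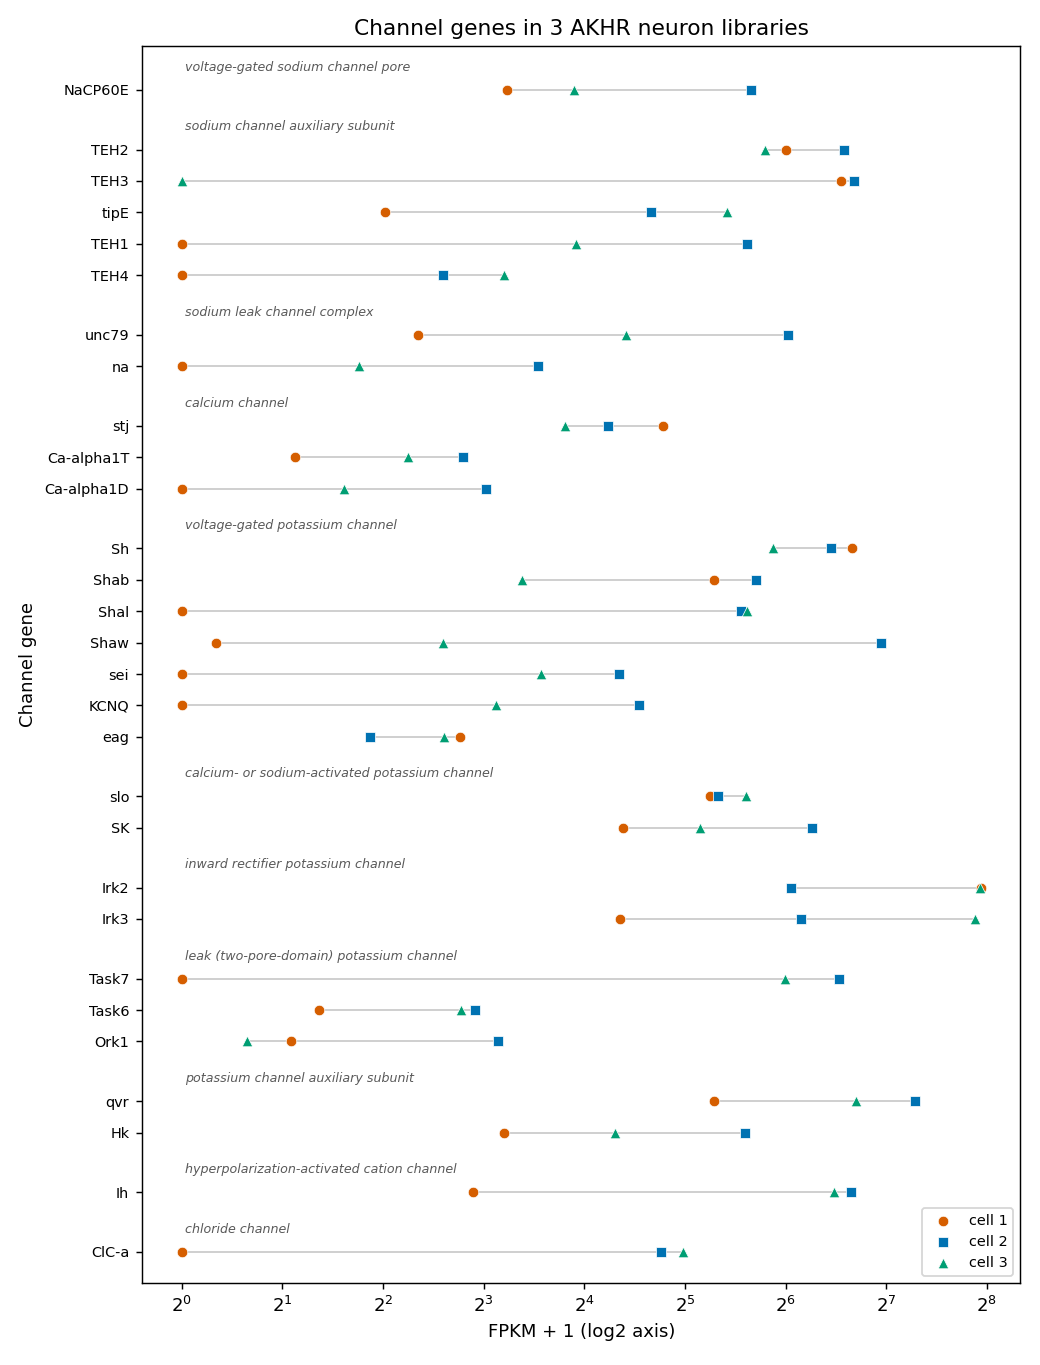
FPKM + 1 of the 29 channel genes (horizontal axis, log2 scale) in cells 1, 2 and 3, grouped by class, with a grey line from the lowest to the highest cell. Points of slo, Sh, TEH2, stj and eag lie close together, while Shaw, TEH3, Task7, Shal and TEH1 reach from a value at or near 0 in a single cell to an FPKM above 40 in another.

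The gene NaCP60E encodes a relative of the voltage-gated sodium channel that, in fly studies, passes calcium and sodium. It stood at an FPKM of 8.41, 49.5 and 13.9 (mean 23.9 ± 22.3, SD, n = 3). Cell 2 was several times above the others, and the SD was nearly as large as the mean. The gene lies on chromosome 2R from 24891614 to 24921677 (BDGP6), and 1.11% of its exon bases are shared with pain on the opposite strand.

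The sodium channel has 5 auxiliary genes here, tipE and its relatives TEH1 to TEH4. The tipE protein was found through a paralysed mutant and raises the current of the para sodium channel. TEH2 was the steadiest of the 5 genes, at an FPKM of 63.2, 95.0 and 54.4 (mean 70.9 ± 21.4, SD, n = 3). Its highest value was 1.75 times its lowest. TEH3 reached 92.8 in cell 1 and 101 in cell 2, but cell 3 had it listed at 0. TEH3 was thus among the 3 highest channel genes of cells 1 and 2, and it was the only channel gene at 0 in cell 3.

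For tipE itself the FPKM was 3.05, 24.3 and 41.7 (mean 23.04 ± 19.4, SD, n = 3). Cell 1 had TEH1 listed at 0, while its FPKM was 47.98 and 14.1 in the other cells. TEH4 was at 0, 5.04 and 8.22, and was the lowest of the family in cell 2. The 5 genes therefore kept no common order over the cells. In cell 1 the auxiliary RNA of this family was mostly that of TEH2 and TEH3, and in cell 3 mostly that of TEH2 and tipE.

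Of these genes, tipE, TEH2, TEH3 and TEH4 stand side by side on chromosome 3L, from 4174859 to 4193788 (BDGP6), a span of 18.9 kb. TEH1 lies apart on chromosome 3R, from 9826081 to 9868120. The TEH3 gene lies inside the span of TEH2 on the same strand, and 229 exon bases belong to both, which is 14.4% of the exon bases of TEH3 and 6.97% of those of TEH2. Reads from these bases cannot be told apart between the genes. In cell 3 the FPKM of TEH2 was 54.4 while TEH3 was listed at 0. A further 19.0% of the exon bases of tipE are shared with CG18675, which was listed at 0 in every cell.

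**Figure D3:**
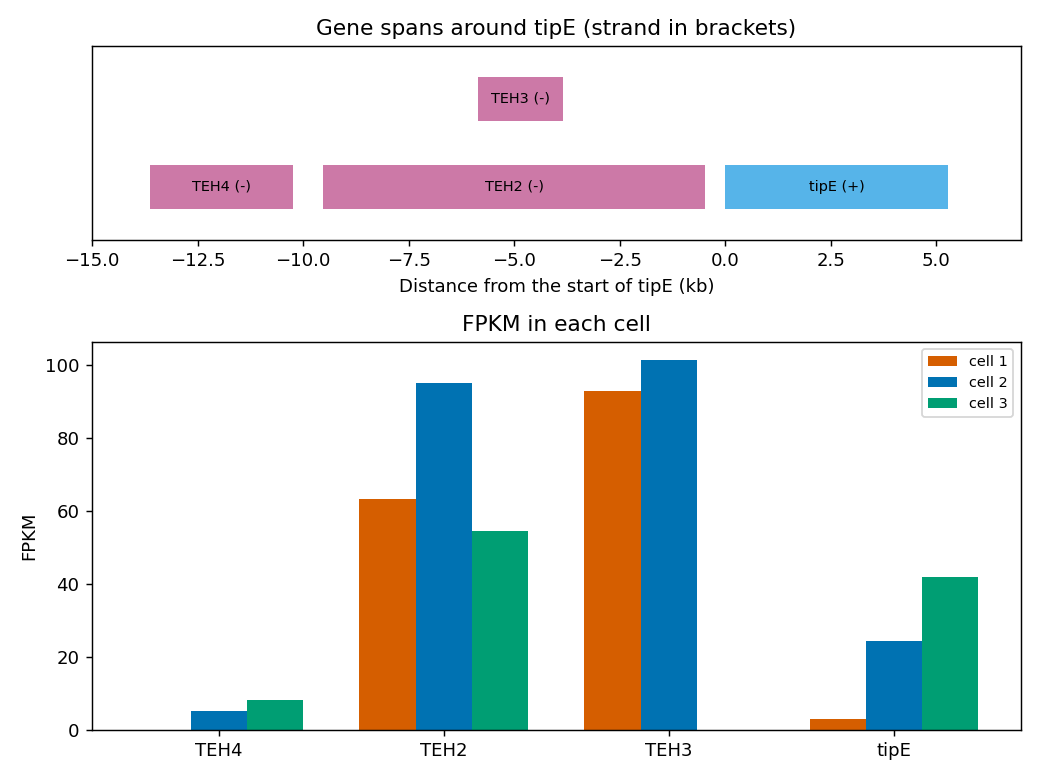
Top, spans of tipE, TEH2, TEH3 and TEH4 drawn to scale against the distance from the start of tipE (kb), with the strand in brackets. Bottom, their FPKM in cells 1, 2 and 3 as bars from 0. The neighbours did not move together: TEH3 stood at 92.8 and 101 in cells 1 and 2 and at 0 in cell 3, and tipE was lowest in cell 1, at 3.05.

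The gene na encodes the pore of the sodium leak channel, which in flies is needed for normal daily rhythms of activity, and unc79 encodes a large partner protein of that channel. The pore gene na was at an FPKM of 0, 10.7 and 2.38, and the partner unc79 at 4.10, 64.1 and 20.2 (mean 29.5 ± 31.1, SD, n = 3). In each cell unc79 stood above na, and both were highest in cell 2.

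Both calcium channel pores analysed were low. Ca-alpha1D encodes the L-type channel, and its FPKM was 0, 7.12 and 2.05. Ca-alpha1T encodes the T-type channel and had 1.17, 5.95 and 3.74 (mean 3.62 ± 2.39, SD, n = 3). The auxiliary gene stj, whose product helps bring calcium channels to the presynaptic membrane, stood above both pores in every cell, at 26.6, 17.9 and 13.0 (mean 19.2 ± 6.89, SD, n = 3). It was 1 of the 4 members that were highest in cell 1, where Ca-alpha1D was listed at 0. Another pore gene, cac, which encodes the main presynaptic calcium channel of the fly and is not in the set, had 16.6, 51.5 and 26.3, above both of these pores in each cell.

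Among the voltage-gated potassium channels Sh and eag were steady and Shaw varied widely. Sh encodes the Shaker channel, which gives a fast, quickly inactivating current and was the first potassium channel gene to be cloned. It stood at an FPKM of 99.8, 86.4 and 57.7 (mean 81.3 ± 21.5, SD, n = 3), and all cells were within 1.73 times of each other. The gene lies on chromosome X from 17924307 to 18063247 (BDGP6) and shares no exon bases with another gene. Shab, a slow delayed rectifier, was at 38.2, 51.1 and 9.40 (mean 32.9 ± 21.3, SD, n = 3), lowest in cell 3.

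Shal encodes the channel behind the fast inactivating current of fly cell bodies and dendrites. It was listed at 0 in cell 1 and had nearly equal values in the others, 46.2 and 48.1. Shaw encodes a channel that opens over a wide voltage range with little inactivation, and its FPKM was 0.264, 123 and 5.04. Its value in cell 2 was the second highest of all channel genes there and 464 times that in cell 1. By the estimated depth and the mean transcript length, the value in cell 1 rested on about 6.05 fragments (95% exact Poisson interval 2.23 to 13.1). That in cell 2 rested on about 2665.

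The remaining voltage-gated pores are KCNQ, sei and eag. KCNQ, of the M-current type, was at an FPKM of 0, 22.2 and 7.69. The fly member of the ERG type, sei, was listed at 0 in cell 1 as well, with 19.3 and 10.9 in the others. In contrast, eag, the founding member of its channel family, was higher in cell 1 than in the others, at 5.78, 2.65 and 5.08 (mean 4.50 ± 1.64, SD, n = 3). Of the 7 voltage-gated potassium pores, 3 were detected in cell 1 (Sh, Shab and eag), and all 7 in cell 2 and in cell 3. Parts of KCNQ and sei, 27.4% and 14.6% of their exon bases, overlap other genes on the opposite strand. Whether strand was used in counting is not given in the sources used here, so reads of these parts may belong to either gene.

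Both potassium channels that open on calcium were detected in every cell. The BK-type channel gene slo was the steadiest member of the set, at an FPKM of 37.0, 39.0 and 47.6 (mean 41.2 ± 5.60, SD, n = 3), and its highest value was 1.28 times its lowest. It lies on chromosome 3R from 24662491 to 24711595 (BDGP6). SK encodes the small-conductance channel that slows firing after a burst, and had 19.9, 76.0 and 34.5 (mean 43.5 ± 29.1, SD, n = 3), highest in cell 2. The means of slo and SK were alike, while the range over cells of SK on the log2 scale was 1.88, against 0.35 for slo.

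Inward rectifiers pass potassium more easily into the cell than out of it and help hold the resting potential. Irk2 had an FPKM of 244, 65.4 and 243 (mean 184 ± 103, SD, n = 3) and ranked 1 among the channel genes in cells 1 and 3 and 10 in cell 2. Irk3 had 19.5, 70.2 and 236 (mean 108 ± 113, SD, n = 3). In cells 2 and 3 the genes stood at nearly the same level, and in cell 1 only Irk2 was high. Irk2 lies on chromosome 3R from 23513617 to 23519445 and Irk3 on chromosome 2L from 18711071 to 18713748 (BDGP6). Of the exon bases of Irk3, 10.8% are shared with Grip71 on the opposite strand, whose FPKM was 0, 27.4 and 0.590.

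The potassium leak channels of the set, 3 in number, are open at rest. Task7 was at an FPKM of 0, 91.3 and 62.8, and in cells 2 and 3 it was among the 6 highest channel genes. Its relative Task6 was low throughout, at 1.58, 6.54 and 5.82 (mean 4.65 ± 2.68, SD, n = 3). Ork1, the first leak potassium channel known from flies, was at 1.12, 7.82 and 0.566 (mean 3.17 ± 4.04, SD, n = 3). The lowest of these values rested on about 15.2 fragments (95% exact Poisson interval 8.57 to 25.03) and that in cell 1 on about 30.6 (20.7 to 43.5).

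The auxiliary genes of the Shaker channel were both detected in every cell. Hk encodes its beta subunit and qvr, also called sleepless, encodes a small membrane-anchored protein that raises Shaker current and promotes sleep in flies. For qvr the FPKM was 38.1, 155 and 103 (mean 98.6 ± 58.5, SD, n = 3), and was the highest channel gene of cell 2. Hk had 8.23, 47.3 and 18.7 (mean 24.7 ± 20.2, SD, n = 3). Both were lowest in cell 1 and highest in cell 2, while Sh was highest in cell 1.

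Ih encodes the channel that opens when the membrane becomes more negative and drives it back towards firing. Its FPKM was 6.43, 99.7 and 88.5 (mean 64.9 ± 50.9, SD, n = 3), low in cell 1 and at rank 4 of the channel genes in both other cells. ClC-a encodes a chloride channel that is also known from fly glia and epithelia. Its FPKM was 0, 26.1 and 30.5, with cell 1 alone at 0.

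Differences between genes were then tested within cells for 10 pairs of related genes. Hk was below Sh in 3 of 3 cells, with a difference of -1.96 ± 1.34 on the log2(FPKM + 1) scale (SD, n = 3), the only one of the 6 pairs with no value at 0 whose mean difference exceeded its SD. The exact two-sided sign-flip permutation test gave p = 0.25, the smallest that 3 cells allow, and 1 after Benjamini-Hochberg adjustment over the 10 pairs. Shal was also below Sh in 3 of 3 cells, with differences of -6.66, -0.89 and -0.26 (exact sign-flip permutation p = 0.25, adjusted 1). The first of these rests on a value listed at 0 in cell 1 and so on the pseudocount of 1. The other 8 pairs changed order between cells.

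The pairs that changed order give the measure of the spread. For qvr against Sh the difference was 0.10 ± 1.27, and qvr was the higher in 2 of 3 cells (exact permutation p = 1). For slo against SK it was 0.12 ± 0.95, with slo higher in 2 of 3 cells (exact permutation p = 1). For Ih against SK it was 0.08 ± 1.44, with Ih higher in 2 of 3 cells (exact permutation p = 1). Irk2 exceeded Irk3 by 1.18 ± 2.09, in 2 of 3 cells (exact permutation p = 0.75), and the difference rested on cell 1, without which it was -0.029. Shab exceeded Shaw by 1.50 ± 3.16, in 2 of 3 cells (exact permutation p = 0.75), but without cell 1 the difference was -0.23. For tipE against TEH1 the differences were 2.02, -0.95 and 1.50, for Ca-alpha1D against Ca-alpha1T they were -1.12, 0.23 and -0.64, and for eag against sei 2.76, -2.47 and -0.96. In these last 3 pairs a gene was listed at 0 in cell 1, and each had an adjusted p of 1 (exact permutation test).

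**Figure D4:**
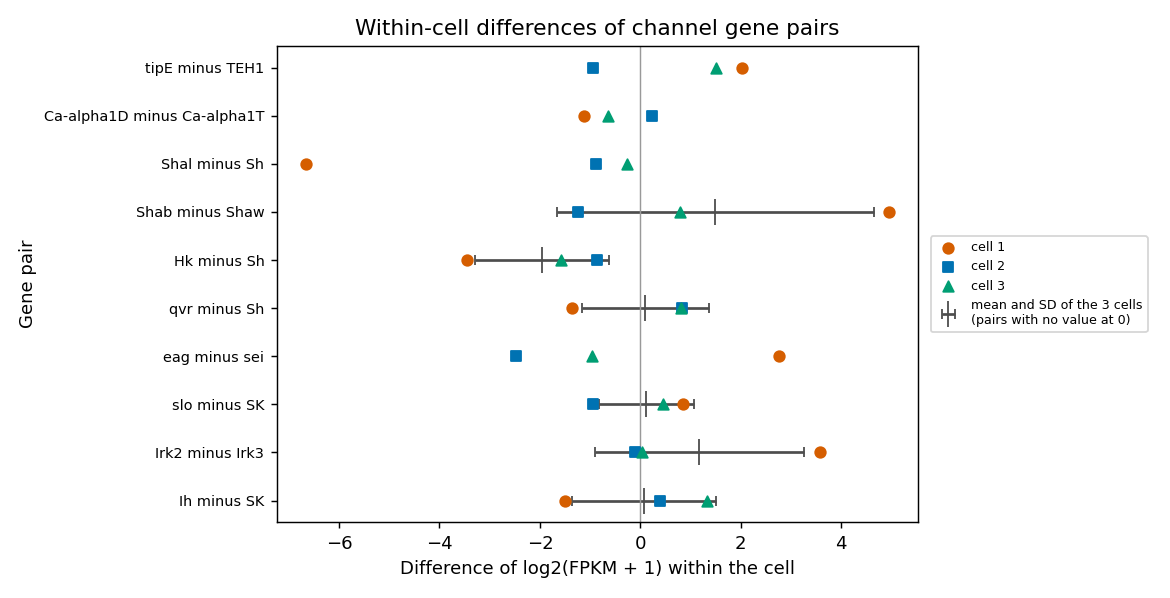
Difference of log2(FPKM + 1) between the first and the second gene of each of 10 pairs within cells 1, 2 and 3 (coloured points), with the mean and SD over the cells (dark bars) for the 6 pairs with no value at 0. All 3 points lie left of 0 for Hk minus Sh and Shal minus Sh, and points lie on both sides of 0 for the other 8 pairs.

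Most of the zeros fell in cell 1. It had 9 channel genes listed at 0 (TEH1, TEH4, na, Ca-alpha1D, Shal, KCNQ, sei, Task7 and ClC-a), against 0 in cell 2 and 1 in cell 3. With Shaw, which was below an FPKM of 1, they made 10 of 29 channel genes (34.5%) that were detected in cells 2 and 3 and not in cell 1, against 10.6% of all genes. Of the 27 channel genes detected in both cells 2 and 3, 17 were also detected in cell 1 (63.0%), and of all 4968 such genes 74.7% were. Without cell 1, 27 channel genes were detected in all cells in place of 17. Some genes of the proteasome and the ribosome were at 0 as well. Of 20 proteasome subunit genes, 2 (Prosalpha1 and Prosalpha5) were listed at 0 in cell 1 and 0 in cells 2 and 3. Of 74 cytosolic ribosomal protein genes, 5, 4 and 3 were listed at 0 in cells 1, 2 and 3. RpL10Aa, RpS19b and RpS28a were at 0 in every cell, RpS5b in cells 1 and 2, and RpS10a in cell 1 alone. Among all genes the shares at 0 were 58.3%, 46.8% and 49.2%. The cause of the zeros was not tested. A value of 0 is given only as listed, and no mean FPKM is given for the channel genes concerned.

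Channel genes were most often highest in cell 2, which held the top value of 19 of them. Cell 1 held that of stj, Sh, eag and Irk2, and cell 3 that of 6 genes. Among the 17 channel genes detected in every cell, 4, 10 and 3 were highest in cells 1, 2 and 3, whereas for the 3709 genes of the full list detected in every cell the shares were 38.2%, 32.0% and 29.8%. At an FPKM of at least 10 in all 3 cells stood 8 channel genes (27.6%), namely TEH2, stj, Sh, slo, SK, Irk2, Irk3 and qvr, against 20.6% of all genes. The median range over cells of the 17 genes was 1.89 on the log2 scale, against 1.59 for all 3709 genes detected in all cells.

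Ranks within the set were only partly shared between cells. Spearman's correlation over the 29 channel genes was 0.500 between cells 1 and 2, 0.372 between cells 1 and 3 and 0.556 between cells 2 and 3. Over the 7207 genes above 0 in at least 1 cell it was 0.576, 0.609 and 0.668. These are descriptions across genes of the same libraries, and genes are not independent replicates.

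Depth is not stated for FPKM. Low values of genes with a single transcript fell best on whole numbers of fragments at an estimated 6620000, 6280000 and 6520000 fragments per library, but only 60.1%, 40.1% and 49.5% of those values lay within 0.1 of a whole number, so these depths are rough. Whether depth bears on the zeros of cell 1 was not tested. Channel transcripts are long, with a median of 4352 bases against 1566 bases for all genes. The smallest FPKM that 3 fragments would give lay between 0.0387 and 0.315 for the channel genes, and the lowest detected value, that of Ork1 in cell 1, rested on about 30.6 fragments. Fragment numbers were computed with the mean length of the annotated transcripts, and the length behind the deposited FPKM is not given. These figures cover counting error only, since copies made by PCR are not independent molecules.

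Markers of several cell types were measured in the same libraries. All 6 neuronal markers with a value (among them elav, Syt1 and brp) were detected in every cell, against 31.1% of all genes. Their summed FPKM was 1573, 1252 and 1379 in cells 1, 2 and 3. Among them elav stood at 4.36, 54.6 and 50.1 and Syt1 at 106, 285 and 174, both lowest in cell 1. Snap25 and Syx1A were lowest in cell 2, and fne and brp in cell 3. Of 6 glial markers, 6, 6 and 5 were detected in cells 1, 2 and 3, and 5 in all cells (83.3%, against 31.1% of all genes). Their sums lay between 1150 and 1236, with wrapper at 732, 323 and 568. The other 5 were each highest in cell 2, among them repo at 3.77, 51.5 and 9.63. On the log2(FPKM + 1) scale the median was 4.39, 6.55 and 6.20 for glial markers and 6.857, 7.678 and 6.858 for neuronal markers. The channel median of 2.35, 5.59 and 3.92 and the median of all genes, 0, 1.19 and 0.18, had the same order of cells. The 8 photoreceptor markers all passed the detection level in each cell, against 31.1% of all genes. Their summed FPKM was 3979, 8126 and 2771, and their median log2 level was 5.64, 6.20 and 4.01. Of the 7 muscle markers 2, 4 and 2 were detected in cells 1, 2 and 3, where the shares of all genes were 36.8%, 50.7% and 47.2%. In all cells 1 was detected (14.3%, against 31.1% of all genes). The muscle sums were 134, 300.3 and 15.7, mostly from Mlc1 (87.6, 189 and 13.0) and wupA (46.7, 74.9 and 0.790). Act88F was listed at 0 in every cell and Mhc reached at most 0.831. The receptor gene AkhR itself had an FPKM of 14.7, 1.90 and 2.52, and cell 1 had the octopamine synthesis genes Tdc2 and Tbh at 0. The monoamine transporter gene Vmat was highest in cell 1, at 154, 71.2 and 95.4. The 6 fat body markers had the highest sums of the marker lists, 20173, 29450 and 32892, nearly all from Yp1, Yp3 and Yp2, which encode yolk proteins. The larval serum protein gene Lsp2 was detected in each cell as well, and Fbp1 and Fbp2 were at 0. The part of RNA from other cell types in the channel values was not tested.

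Other genes that shape the membrane potential were counted beside the set. Of 16 further channel and channel partner genes, 9, 12 and 10 were detected per cell, and 8 in all cells (8 of 16, against 31.1% of all genes), the highest being Slip1, ClC-b, cac, Slob and CG42340. Slob, which binds the slo channel, had an FPKM of 13.3, 41.3 and 26.0. Of 11 genes for pumps and transporters that build the ion gradients, 10 were detected in every cell (90.9%, against 31.1% of all genes). Atpalpha, the catalytic subunit of the sodium pump, stood at 1172, 2896 and 1777 (mean 1948 ± 875, SD, n = 3), and its beta subunit genes nrv3 and nrv2 averaged 1792 ± 120 and 1373 ± 530. In each cell Atpalpha alone exceeded the summed FPKM of all 29 channel genes.

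Of 11 TRP and pickpocket channel genes, 4 were detected in every cell (36.4%, against 31.1% of all genes) and 5 in none (45.5%, against 42.3%). The 4 were trp, wtrw, pyx and trpl, and trp and trpl are the light-activated channels of photoreceptors. Their FPKM was 51.8, 63.4 and 14.9 for trp and 6.46, 82.4 and 2.52 for trpl. TrpA1, nan, iav, ppk and rpk were listed at 0 in all cells.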

How the data were processed

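RNA of 3 AKHR+ neuron libraries was analysed. The authors removed low-quality reads, adaptors and the amplification primer, mapped the reads to the fly genome (HISAT is named in the submitters' processing notes) and deposited FPKM per gene. Version, quantifier, genome build and annotation are not given in the sources used here. No molecular identifiers are described.

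Each file had 12180 lines for 11922 FlyBase IDs, and the 117 IDs on several lines were averaged (0 channel genes among them). The column of cell 3 carried another sample number, and the label was followed. Symbols, coordinates and transcript lengths were taken from BDGP6.54 (Ensembl release 115), which matched 11794 IDs. Synonyms came from RefSeq (Release 6). No 2 cells shared an identical value above 0 (0 genes). No sequences are shown.

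Tests used log2(FPKM + 1), which understates differences between low genes. Pairs were compared within cells by an exact sign-flip permutation test with Benjamini-Hochberg adjustment. Of 16 pairs listed, 10 had a value for both genes. FPKM are not counts, and no count test was run. Whether the libraries came from separate flies is not stated, so the spread may be partly technical. Depth was searched on a grid of library sizes over values of up to 10 fragments. The channel genes, pairs and lists were chosen with earlier results of these data known. Every channel gene was named, and the 5 highest genes at most of each other list. Genes singled out beyond that (Prosalpha1, Prosalpha5, overlapping genes, markers and the genes listed at 0) were chosen after their values were seen. Restricting the order of levels to genes above 0 in every cell was also decided after seeing the data. As alternatives, cells were left out in turn, the pseudocount was set to 0.1, detection thresholds were changed, libraries were rescaled to equal sums, repeated lines were summed and another median was taken as the bar. Python 3.11.15, numpy 2.4.6 and pandas 2.3.3 were used.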

Additional observations from a re-analysis of the deposited data

How the results depend on the processing

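The 17 channel genes detected in all cells became 8 when the threshold was an FPKM of 10. Leaving out a replicate gave between 17 and 27, highest without replicate 1. The 5 channel genes above the median of the genes above 0 became 19 against the median of all genes with a line, zeros included, and lay between 5 and 12 as each replicate was left out, again highest without replicate 1. Summing repeated lines could not change a channel gene, since 0 of them stood on several lines. Rescaling the libraries to an equal, larger sum raised the mean FPKM of every channel gene, by construction. For 17 genes the rise was at least the SD over cells. Leaving out a cell changed the mean of 8 of the 19 genes above 0 in every cell by over 1.5 times. Without cell 2 the mean FPKM became 11.1 for NaCP60E (23.9 with it), 12.2 for unc79 (29.5), 2.65 for Shaw (42.7), 27.2 for SK (43.5), 0.842 for Ork1 (3.17) and 13.5 for Hk (24.7). Without cell 3 it became 13.7 for tipE (23.04) and 44.8 for Irk3 (108).

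Without each replicate in turn, the differences that changed sign ranged from -0.23 to 2.87 for Shab and Shaw, from -0.27 to 0.83 for qvr and Sh, from -1.72 to 0.90 for eag and sei, from -0.24 to 0.66 for slo and SK, from -0.029 to 1.81 for Irk2 and Irk3 and from -0.55 to 0.86 for Ih and SK. The difference of eag and sei, which takes in a value of sei listed at 0 in cell 1, also reversed from -0.23 to 0.66 at a pseudocount of 0.1 and to 0.0027 after rescaling. The cause of these changes was not tested. The exact permutation test over 3 cells cannot pass its threshold, so its unchanged outcome says nothing about stability. No paired analysis was possible because there is a single group, and pairing was within cells only.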
